A study of Mus musculus with 6 samples.

Results

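A set of 10 genes of mucin-type O-glycosylation were examined in mouse megakaryocyte-erythroid progenitors. They were the polypeptide GalNAc-transferase genes Galnt1, Galnt2, Galnt3, Galnt4, Galnt6, Galnt7, Galnt10, Galnt11 and Galnt12, and C1galt1, which encodes the core 1 synthase. The GalNAc-transferases form the enzyme family that starts these chains, although some members prefer peptides that already carry the sugar. Each of the 10 genes was represented by a probe set that the platform annotation assigned to that gene alone. Between several such probe sets, the choice would have been by the mean level over the 6 arrays, but each of the 10 genes had only 1, so that no level decided a probe set. They were 10 of 19661 genes tested. The genes were chosen by name and role with earlier results of the same genotype comparison known, among them the decrease of Galnt7, so the number of them that changed is a description.

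The cells came from bone marrow of Fog1ki/ki mice, homozygous for a knock-in at Fog1 (3 arrays), and of Fog1+/+ mice, with both Fog1 alleles intact (3 arrays), all on a B6.129 background. FOG1, the product of Zfpm1, works as a partner of the erythroid transcription factor GATA1, and from general knowledge of the study the knock-in disrupts its contact with the NuRD chromatin complex, although the labels do not say what the allele changes. The sorting gate took Kit-positive cells that lacked lineage markers, Sca1 and CD34 and had low FcγRII/III. The arrays are described as biological replicates, without ages, sexes or the number of animals behind each, so p-values measure the spread between these samples.

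Mucin-type O-glycans begin in the Golgi, where a GalNAc-transferase links N-acetylgalactosamine to a serine or threonine of a passing protein. Some family members act on bare peptide, and others prefer a peptide that already carries this sugar nearby and so fill in dense clusters. The core 1 synthase then adds galactose, and further enzymes branch, sialylate or sulphate the chain. In blood cells such chains are dense on leukosialin (Spn), on PSGL-1 (Selplg) and on platelet and red cell membrane glycoproteins, and mice without core 1 chains have bleeding and too few platelets.

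RefSeq promoters (GRCm38.p6) were at hand for 6 of the 10 genes, Galnt3, Galnt6, Galnt7, Galnt10, Galnt11 and C1galt1, with 8 start sites in all. The 250 bases before the start site are shown, 5′ to 3′ on the strand of the gene, for Galnt7, the gene that changed, for its relative Galnt10, whose difference lay nearest to 0, and for C1galt1, which acts next in the pathway. Capitals mark GC boxes (GGGCGG on either strand).
Galnt7 (chr8:57653056-57653305, minus strand): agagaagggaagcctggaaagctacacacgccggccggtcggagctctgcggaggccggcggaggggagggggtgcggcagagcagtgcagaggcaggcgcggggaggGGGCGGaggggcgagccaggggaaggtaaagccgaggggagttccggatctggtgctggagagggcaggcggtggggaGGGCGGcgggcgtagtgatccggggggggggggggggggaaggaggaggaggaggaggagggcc
Galnt10 (chr11:57645192-57645441, plus strand): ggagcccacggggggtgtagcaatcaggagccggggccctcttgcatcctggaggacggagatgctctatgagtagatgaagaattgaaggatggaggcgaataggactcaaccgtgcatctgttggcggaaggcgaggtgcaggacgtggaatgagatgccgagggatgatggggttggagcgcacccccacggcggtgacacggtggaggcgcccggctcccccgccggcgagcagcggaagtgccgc
C1galt1 (chr6:7844974-7845223, plus strand): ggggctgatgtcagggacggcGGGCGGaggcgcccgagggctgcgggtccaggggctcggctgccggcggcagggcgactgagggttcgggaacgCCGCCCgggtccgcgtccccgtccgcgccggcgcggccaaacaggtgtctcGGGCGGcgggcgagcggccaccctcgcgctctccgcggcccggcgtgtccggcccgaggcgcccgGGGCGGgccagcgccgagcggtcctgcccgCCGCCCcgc

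The Galnt7 promoter was rich in G and C (73.6%), at a level that 5.32% of the 32851 promoters in the table reached. Genes of the set that did not pass were also rich in G and C, with 82.8% in C1galt1 and 76.8% in Galnt3. The share was 72.8% and 59.6% at the start sites of Galnt6, 64.4% in Galnt10, and 54.0% and 42.8% at those of Galnt11. The Galnt7 promoter held 2 GC boxes, against 0 in Galnt10, 5 in C1galt1 and 3 in Galnt3. The start sites of Galnt6 had 3 and 0, and those of Galnt11 had 2 and 0. Of all promoters of this length 32.7% held at least 1. The GATA motif, searched as GATAA on both strands, was found in 0 of the 8 promoters of these genes and in 22.6% of all promoters. The TATA box, searched as TATAAA on both strands, was found in 0 of the 8 and in 12.4% of all. With GC boxes alone found, no matches of different motifs overlapped, and a match or its lack describes only these windows.

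Galnt7 was 5.02-fold lower in Fog1ki/ki progenitors. It encodes a transferase that prefers peptides already bearing N-acetylgalactosamine. The probe set measured 7.10, 6.64 and 7.12 on the log2 scale in the Fog1ki/ki arrays, against 9.10, 9.36 and 9.38 in the Fog1+/+ arrays. The genotypes did not overlap, and the highest Fog1ki/ki array lay well below the lowest Fog1+/+ array. The means were 6.95 ± 0.27 in Fog1ki/ki and 9.28 ± 0.16 in Fog1+/+ (SD, n = 3 each), which gave a difference of -2.33 (SE 0.15, 95% interval -2.66 to -1.99, limma adjusted p = 0.000325). This was the lowest log2 difference of all 19661 genes, shared at 3 decimals with the metallothionein gene Mt2. Galnt7 stayed above the median of its array on all 6 arrays, so its probe set did not reach the dim end of the scale in Fog1ki/ki. In bulk samples a lower share of cells with the transcript and less transcript per cell cannot be told apart.

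**Figure D1:**
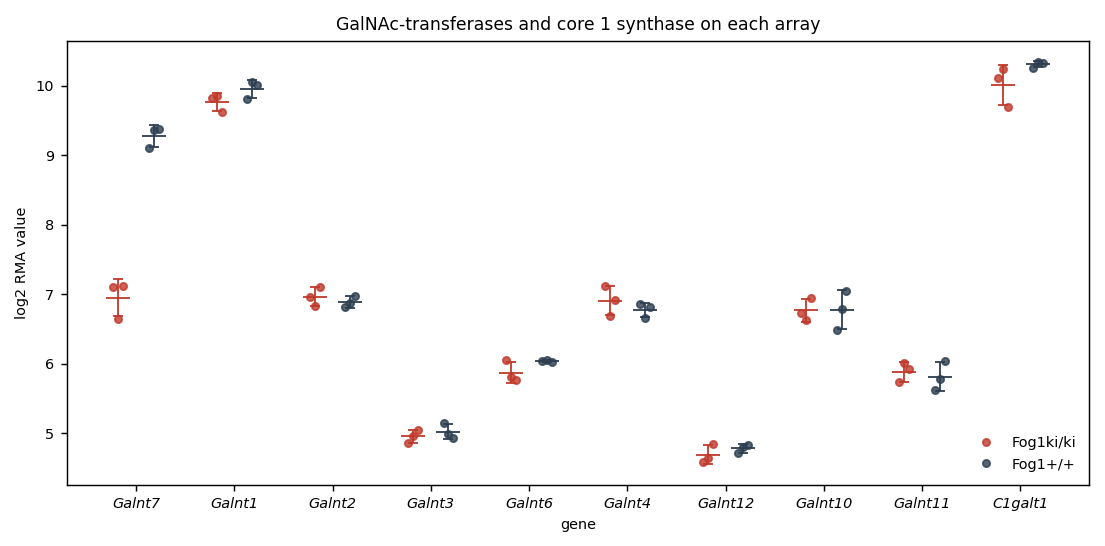
Log2 RMA values (vertical axis) of the 9 GalNAc-transferase genes and C1galt1 on each array, with Fog1ki/ki (red) left of Fog1+/+ (dark blue); bars show the mean and SD of 3 arrays, and heights of different genes are not comparable because they come from different probe sets. The 3 Fog1ki/ki values of Galnt7 (6.64 to 7.12) sit below its 3 Fog1+/+ values (9.10 to 9.38), while the other transferases overlap between genotypes.

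Of the 10 genes, 1 fell, 0 rose and 9 did not pass at a limma adjusted p of less than 0.05, while 0.773% of all genes tested passed (0.397% lower and 0.376% higher). With unadjusted p-values under 0.05 the counts among the 10 were the same, 1 lower and 0 higher, a share near that of all genes tested, of which 9.57% passed at that level (4.58% lower and 4.99% higher). In 2 of the 10, Galnt7 and C1galt1, all Fog1ki/ki arrays lay below all Fog1+/+ arrays, as did those of 6.53% of all genes. The median log2 difference of the 10 was -0.08, and that of the 9 without Galnt7 was -0.07, beside 0.02 over all genes tested. For these 9 the 95% intervals lay between -0.62 and 0.41, so any decrease larger than 1.53-fold or increase larger than 1.33-fold lay outside all of them.

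The broadly expressed starter enzymes Galnt1 and Galnt2 did not pass. Galnt1, whose loss in mice causes bleeding, measured 9.83, 9.86 and 9.62 in Fog1ki/ki and 9.81, 10.06 and 10.01 in Fog1+/+. Its genotypes overlapped, and the lowest value belonged to Fog1ki/ki replicate 3 (log2 difference -0.19, SE 0.11, limma adjusted p = 0.650). Galnt2, which in humans glycosylates plasma lipoprotein regulators, measured 6.96, 6.83 and 7.10 in Fog1ki/ki and 6.81, 6.87 and 6.98 in Fog1+/+. The arrays were interleaved, differing by 0.08 on the log2 scale (SE 0.10, limma adjusted p = 0.879).

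Galnt3 and Galnt6 encode a pair of closely related enzymes, and neither passed. Galnt3, which protects the phosphate hormone FGF23 from cleavage, measured 4.86, 4.96 and 5.04 in Fog1ki/ki and 5.14, 4.99 and 4.93 in Fog1+/+. These values lay near the lower quartiles of the arrays (4.81 to 4.92), where RMA compresses differences, and the log2 difference was -0.07 (SE 0.10, limma adjusted p = 0.892). Galnt6 measured 6.05, 5.81 and 5.76 in Fog1ki/ki and 6.04, 6.05 and 6.03 in Fog1+/+. The Fog1+/+ arrays agreed within 0.02, whereas Fog1ki/ki replicates 2 and 3 were lower and replicate 1 was not (log2 difference -0.17, SE 0.10, limma adjusted p = 0.675). The SDs of Galnt6 were 0.155 in Fog1ki/ki and 0.010 in Fog1+/+, and no test of unequal spread was made.

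The other transferases also overlapped between genotypes. Galnt10, the enzyme most like GALNT7 in preferring peptides that already carry the sugar, measured 6.73, 6.63 and 6.95 in Fog1ki/ki and 6.49, 6.79 and 7.05 in Fog1+/+. The difference was -0.01 (log2, SE 0.15, 95% interval -0.35 to 0.33, limma adjusted p = 0.993), so the interval did not reach the size seen in Galnt7. Galnt4, which also acts on glycopeptides and in humans glycosylates PSGL-1, measured 7.12, 6.69 and 6.92 in Fog1ki/ki and 6.86, 6.66 and 6.81 in Fog1+/+ (log2 difference 0.13, limma adjusted p = 0.807). Galnt4 lies within the RefSeq gene Poc1b, a centriole gene with a probe set of its own, which measured 8.03, 7.74 and 8.24 in Fog1ki/ki and 8.32, 8.26 and 8.05 in Fog1+/+. Galnt12 measured 4.58, 4.64 and 4.84 in Fog1ki/ki and 4.71, 4.80 and 4.83 in Fog1+/+, again near the lower quartiles (log2 difference -0.09, limma adjusted p = 0.842). Galnt11, which glycosylates NOTCH1 and low-density lipoprotein receptor relatives, measured 5.73, 6.01 and 5.92 in Fog1ki/ki and 5.62, 5.78 and 6.04 in Fog1+/+ (log2 difference 0.07, limma adjusted p = 0.911). The signs of Galnt10 and Galnt11 turned in some alternative settings, and neither passed in any of the 18.

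C1galt1 did not pass, although its genotypes did not overlap. It measured 10.12, 10.24 and 9.69 in Fog1ki/ki and 10.26, 10.35 and 10.33 in Fog1+/+. The Fog1+/+ arrays lay close together, and Fog1ki/ki replicate 3 lay apart from the other Fog1ki/ki arrays. The log2 difference was -0.30 (SE 0.14, 95% interval -0.62 to 0.02, limma adjusted p = 0.566), and it was -0.13 without Fog1ki/ki replicate 3. The chaperone of this enzyme, COSMC, is encoded by C1galt1c1, which measured 8.97, 9.46 and 8.64 in Fog1ki/ki and 9.0, 8.83 and 8.86 in Fog1+/+. Fog1ki/ki replicate 3 was again the lowest array and replicate 2 the highest, and the genotypes differed by 0.13 (log2, SE 0.18, limma adjusted p = 0.888).

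The remaining 10 genes of the Galnt family were measured too, and 0 passed, beside 0.773% of all genes. With an unadjusted p under 0.05 in limma there were 0 also, beside 9.57% of all genes. Their log2 differences ran from -0.16 for Galnt15 to 0.18 for Galnt17, with a median of 0.02, and their 95% intervals lay between -0.45 and 0.49. Galnt5, Galnt13, Galnt14, Galnt18 and Galntl5 lay below the lower quartile on all 6 arrays, so little can be read from them. Galnt13, the neuronal relative of Galnt1, had a log2 difference of 0.15, and Galnt9, known from brain, one of 0.03. Values of -0.04 were measured for Galnt5, Galnt14 and Galnt16, of -0.00 for Galnt18, of 0.07 for the testis gene Galntl5 and of 0.13 for Galntl6. All 10 overlapped between genotypes.

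**Figure D2:**
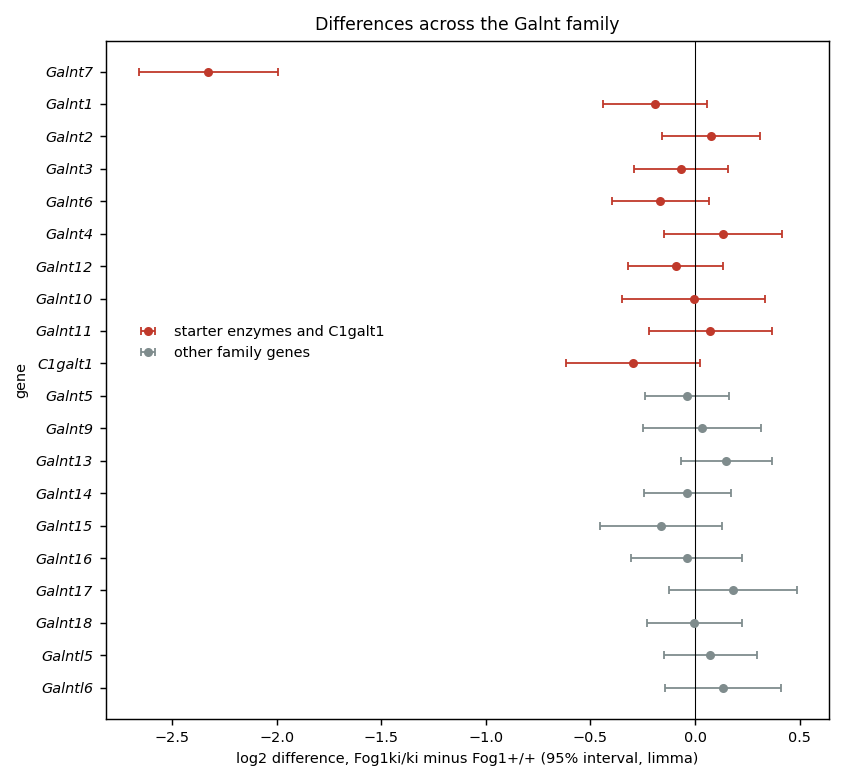
Log2 differences, Fog1ki/ki minus Fog1+/+, with 95% intervals from limma (horizontal axis) for the 9 GalNAc-transferases and C1galt1 (red) and the other 10 family genes (grey). Galnt7 stands at -2.33, and the intervals of the other 19 genes all include 0.

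Enzymes that extend, cap or sulphate O-glycans did not pass (0 of 26 in limma, beside 0.773% of all genes, median log2 difference 0.01). With an unadjusted p under 0.05 there were 3 higher and 1 lower, beside 4.99% higher and 4.58% lower of all genes. The smallest p belonged to St6galnac3, a sialyltransferase that adds sialic acid to the inner N-acetylgalactosamine. It measured 7.47, 7.16 and 7.15 in Fog1ki/ki, against 6.97, 6.51 and 6.79 in Fog1+/+. The genotypes did not overlap (log2 difference 0.50, SE 0.14, limma adjusted p = 0.230). Gcnt1, the core 2 branching enzyme of leukocytes, had a log2 difference of -0.30 (SE 0.27), St3gal1, which caps core 1 with sialic acid, one of 0.13 (SE 0.28), and B4galt1, which extends branches with galactose, one of -0.14 (SE 0.16). St3gal6, a sialyltransferase of selectin ligands, stood at -0.45 and the fucosyltransferase Fut7, which completes those ligands, at 0.32, and neither passed.

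None of the 18 measured genes for making and moving sugar nucleotides passed (0 in limma, beside 0.773% of all genes, median log2 difference -0.01). With an unadjusted p under 0.05 there were 1 higher and 1 lower of the 18, near the 4.99% and 4.58% of all genes. Gfpt1, the first and rate-limiting enzyme of the hexosamine pathway that feeds UDP-N-acetylgalactosamine, came nearest. It measured 9.58, 9.37 and 9.49 in Fog1ki/ki, against 8.95, 9.0 and 9.0 in Fog1+/+. The genotypes did not overlap, and the log2 difference was 0.50 (SE 0.09, limma adjusted p = 0.0556). Gfpt1 was past the threshold with quantile normalization repeated (adjusted p = 0.0214) and without the dimmest 25% of genes (adjusted p = 0.0470). Later steps of that pathway did not pass, with log2 differences of 0.14 for Pgm3 and -0.31 for Uap1, and neither did the Golgi carrier of UDP-N-acetylglucosamine Slc35a3 (-0.34) or the UDP-galactose carrier Slc35a2 (0.08).

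A further list held 23 measured genes of proteins that carry such chains or, like the shedding proteases Adam10 and Adam17, act on them. Of these 0 passed in limma, beside 0.773% of all genes (median log2 difference -0.01). With an unadjusted p under 0.05 there were 1 higher and 3 lower of the 23, against 4.99% and 4.58% of all genes. The smallest p belonged to Kit, the stem cell factor receptor of the sorting gate, at 10.05, 9.72 and 9.96 in Fog1ki/ki and 10.26, 10.30 and 10.30 in Fog1+/+. These genotypes did not overlap (log2 difference -0.38, SE 0.11, limma adjusted p = 0.233). The leukosialin gene Spn had a log2 difference of 0.10, Selplg one of 0.17, the sialomucin gene Podxl one of 0.35 and the hyaluronan receptor gene Cd44 one of -0.40, and none of these 4 passed.

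Other glycosylation and Golgi genes were counted in the same way, beside 0.773% of all genes past the adjusted threshold. Of 25 enzymes of N-glycans and of other O-linked sugars, 0 passed in limma (2 higher and 3 lower with an unadjusted p under 0.05, beside 4.99% and 4.58% of all genes, median 0.00), with the smallest p for Mgat2, which starts the second branch of complex N-glycans (log2 difference -0.35, SE 0.11, limma adjusted p = 0.315). Ogt, which adds the single intracellular N-acetylglucosamine, had a log2 difference of 0.13. Of 29 Golgi transport and structure genes, 0 passed in limma (1 higher and 0 lower with an unadjusted p under 0.05, no more than the 4.99% and 4.58% of all genes, median -0.07), with the smallest p for Cog5, a subunit of the tether that recycles Golgi enzymes (log2 difference 0.22, limma adjusted p = 0.475). Over all 131 measured pathway genes the range was -0.45 to 0.50.

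**Figure D3:**
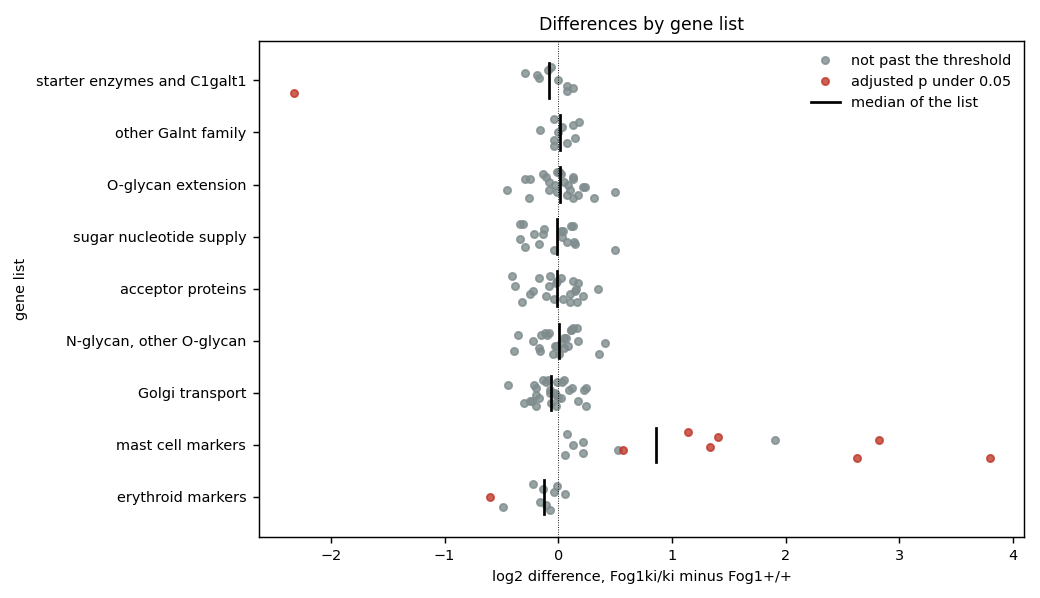
Log2 differences, Fog1ki/ki minus Fog1+/+ (horizontal axis), of single genes by list, with genes past an adjusted p of 0.05 in red, others in grey, and a black bar at the median of each list. Galnt7 at -2.33 is the red point in the row labelled starter enzymes and C1galt1, which holds the GalNAc-transferases. The other O-glycan, N-glycan and Golgi lists hold no red point. Among the markers, 7 of 14 mast cell and 1 of 10 erythroid ones are red, beside 0.773% of all genes tested. The lists were chosen with earlier results of these data known.

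Galnt7 lies on chromosome 8, which also carries Zfpm1 and Galnt2. Of the 941 tested genes of that chromosome 1.28% were called (4 higher, 8 lower), beside 0.773% of all genes tested. Galnt7 and Zfpm1 were separated by 552 tested genes, and Galnt2 and Zfpm1 by 48. Among the 10 tested genes on either side of Galnt7, 0 of 20 were called in limma and 0 had arrays that did not overlap. Over all 19661 genes tested, arrays did not overlap in 1633 higher and 1283 lower. Some neighbours were dim, such as Adam29 and Glra3 (means over 6 arrays of 3.52 and 3.55), so little can be read from them. The nearest tested neighbours of Galnt7 were Sap30, which encodes a subunit of the Sin3 histone deacetylase complex (log2 difference -0.07, SE 0.13), and the family gene Galntl6 (0.13, SE 0.12). The lowest of the 20 was Ddx60, an interferon-induced helicase gene, at -0.90 (SE 0.49). That value rested on Fog1+/+ replicate 2, at 7.12 against 5.06 and 4.92 in the other Fog1+/+ arrays. In RefSeq 4 non-coding or pseudogene entries overlap Galnt7, among them the lncRNA AW046200, and they were not tested.

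**Figure D4:**
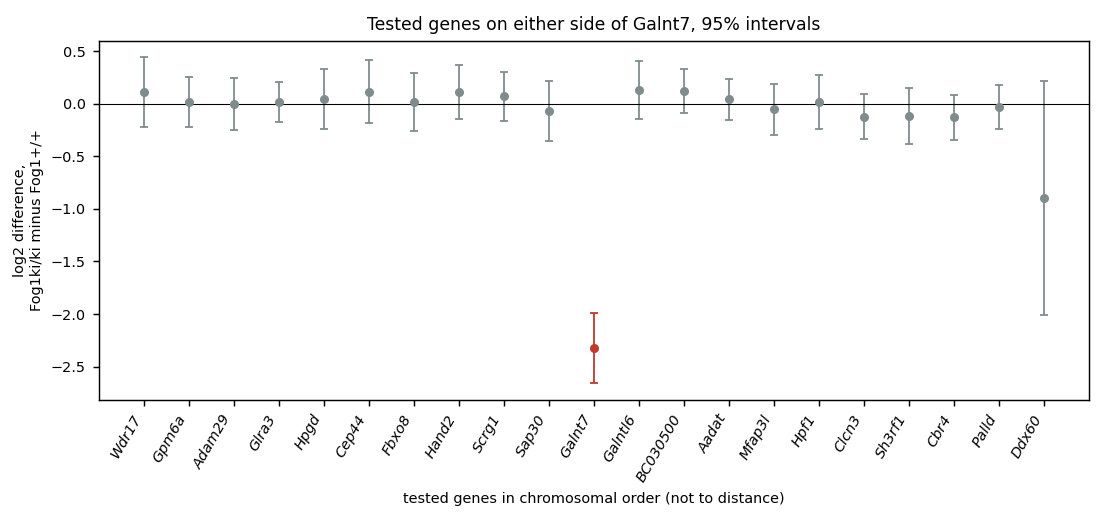
Log2 differences, Fog1ki/ki minus Fog1+/+, with 95% intervals from limma (vertical axis) for Galnt7 (red) and the 10 tested genes on either side of it (grey), in chromosomal order and not to distance. Galnt7 stands at -2.33, and the intervals of the 20 neighbours all include 0.

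Genes whose values over the 6 arrays were most like those of Galnt7 were sought by the root mean square difference between log2 profiles, each centred on its own mean. The 5 closest were Anxa5 (0.203), Prelid2 (0.290), Grb10 (0.305), Mfhas1 (0.326) and Cecr2 (0.365), where smaller is more alike. Anxa5, which encodes the phosphatidylserine-binding annexin A5, measured 6.88, 6.79 and 6.73 in Fog1ki/ki, against 9.02, 9.14 and 8.91 in Fog1+/+. Its log2 difference was -2.22 (SE 0.10), and those of Prelid2, Grb10, Mfhas1 and Cecr2 were -1.97, -2.06, -1.69 and -1.76. All 5 were past the threshold and had arrays that did not overlap. The measure runs over 6 arrays that fall into 2 genotypes, so these profiles share the genotype step.

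The labelled cell type was checked against its markers. Of 13 measured genes of the gate and lineage, 10 lay above the median of every array (Kit, Gata1, Klf1, Epor, Tal1, Gfi1b, Nfe2, Zfpm1, Itga2b and Tfrc), and Cd34 lay below the lower quartile of every array. Of the 13, 0 passed in limma, beside 0.773% of all genes. Unadjusted limma p-values fell below 0.05 for 3 higher in Fog1ki/ki, Fcgr2b (log2 difference 0.29), Nfe2 (0.33) and Itga2b (0.31). They did so for 2 lower ones, Kit (-0.38) and Gata1 (-0.29), beside 4.99% higher and 4.58% lower of all genes. Over the 13 the genotypes did not overlap in 4 higher, these 3 and Tal1 (0.14), and in 2 lower, Kit and Gata1. Of all 19661 genes tested, 1633 higher and 1283 lower did not overlap either. Fcgr2b, a gene of the FcγRII/III gate, measured 5.07, 4.98 and 5.02 in Fog1ki/ki, against 4.71, 4.73 and 4.75 in Fog1+/+. Fcgr3 overlapped (0.12). Zfpm1 itself differed by 0.05 on that scale (SE 0.13, limma adjusted p = 0.948). All 10 measured erythroid markers lay above the array medians. Of these 1 fell, 0 rose and 9 did not pass, beside 0.397% lower and 0.376% higher of all genes. The 1 that fell was Xk, which carries the Kx antigen (log2 difference -0.60, limma adjusted p = 0.0389, a call lost in 13 of 18 alternative settings). At an unadjusted p under 0.05 in limma, 0 were higher and 2 lower, Xk and Add2 (log2 difference -0.49). The mean log2 value of the 10 ran from 9.23 to 9.40 in Fog1ki/ki and from 9.43 to 9.58 in Fog1+/+. The mast cell list was chosen with earlier results of these data known, and it holds Rgs13, which had the smallest p of all genes. Its counts are therefore a description and not independent marker evidence. Among its 14 measured markers 7 rose, 0 fell and 7 did not pass, beside 0.376% higher and 0.397% lower of all genes. Those that rose included Ms4a2 (log2 difference 3.79), Rgs13 (2.82), Gata2 (1.14) and Lat (0.57). The 7 that did not pass were Fcer1a (1.91), Cpa3 (0.53), Cma1 (0.21), Mcpt4 (0.21), Tpsab1 (0.13), Tpsb2 (0.07) and Hdc (0.06). At an unadjusted p under 0.05 in limma, 9 of the 14 were higher and 0 lower, beside 4.99% and 4.58% of all genes. The number of mast cell markers called was 3 to 5 with 1 array left out (3 without Fog1+/+ replicate 3, 4 without Fog1ki/ki replicate 3 or Fog1+/+ replicate 1 or 2, and 5 without Fog1ki/ki replicate 1 or 2). Lat lost its call in 11 and Gata2 in 6 of the 18 settings, while Ms4a2 and Rgs13 kept theirs in all 18. The mean log2 value of that list ran from 6.73 to 7.19 in Fog1ki/ki and from 5.68 to 5.77 in Fog1+/+, and no marker was at 0, since RMA gives every probe set a value. Of the 15 neutrophil and monocyte, 10 lymphoid and 8 megakaryocyte markers 0 passed in limma, beside 0.773% of all genes. In that order their mean log2 values were 6.23 to 6.60, 5.19 to 5.31 and 6.66 to 6.85 in Fog1ki/ki. In Fog1+/+ they were 6.36 to 6.62, 5.20 to 5.23 and 6.39 to 6.51. With an unadjusted p under 0.05 the neutrophil and monocyte list had 0 of 15 in either direction, the lymphoid list 0 higher and 1 lower of 10, and the megakaryocyte list 3 higher and 0 lower of 8, beside 4.99% higher and 4.58% lower of all genes. The smallest p of the megakaryocyte list belonged to Plek, the platelet protein pleckstrin, at 7.22, 7.25 and 6.93 in Fog1ki/ki, against 6.01, 6.69 and 6.20 in Fog1+/+. The genotypes did not overlap (log2 difference 0.83, SE 0.17, limma adjusted p = 0.0910), and Plek was past the threshold without Fog1+/+ replicate 2 (log2 difference 1.03, adjusted p = 0.0226). The smallest p of the lymphoid list belonged to Cd3g, a T cell receptor subunit (log2 difference -0.28, limma adjusted p = 0.348), and that of the neutrophil and monocyte list to S100a8 (-0.29, limma adjusted p = 0.625). The neutrophil granule genes Ngp, Ltf, Camp, S100a8 and S100a9 lay above the median of every array in both genotypes. The called mast cell markers and Xk moved with genotype beside Galnt7, and the part of any marker in the decrease of Galnt7 was not tested.

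Replicate 3 of each genotype had low values of the Y-linked gene Eif2s3y (3.46 in Fog1ki/ki and 3.21 in Fog1+/+, against 9.29 or more on the other arrays) and high Xist (11.03 and 11.02). Fog1ki/ki replicate 2 had high Eif2s3y (9.44) together with an Xist value of 9.13. Without both replicates 3 the log2 difference of Galnt7 was -2.36 (SE 0.19, limma adjusted p = 0.0129), and without Fog1ki/ki replicate 2 it was -2.17 (SE 0.12, limma adjusted p = 0.00106).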

How the data were processed

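Total RNA was amplified with the WT-Ovation Pico system and hybridised to 1-colour arrays, 1 sample each, per the labels' protocols. The deposited values are log2 values per probe set, and the submitters' processing notes name RMA without its software or settings. That the scale is log2 follows from the range of the values. Array medians lay between 6.02 and 6.15. Of 25668 probe sets 20777 had 1 gene in the platform annotation, 232 several and 4659 none. Of the named probe sets 20696 matched the RefSeq table (GRCm38.p6) by Entrez identifier, and 0 symbols changed. That table supplied names, chromosomes and gene order.

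The genotype effect was fitted by lmFit and eBayes of limma 3.58.1 (R 4.3.3, two-sided, no other term) over 19661 genes with no filter on dim probe sets, and a Benjamini-Hochberg adjusted p under 0.05 counted as a call. With 3 arrays a genotype the smallest exact permutation p is 0.1. The fit was tested on simulated data with 50 genes changed per size, and recovered 16, 41, 48 and 50 of them at log2 sizes of 0.5, 1, 1.5 and 2, with 9 of 19461 unchanged genes called. The members and lists were chosen with earlier results of these data known. Named genes were the 10 members, Zfpm1, the other family genes, per list the called genes (the 2 highest and 2 lowest) or else the smallest p, the 5 most alike to Galnt7 and any called neighbour. Further genes are named for their role, with their values already known. Alternatives were other normalizations, filters, probe set rules, variance priors, array weights, a replicate block, a term for or removal of the arrays with low Y-linked values, other thresholds and leaving out each array. Tables and figures were made with Python 3.11.15.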

Additional observations from a re-analysis of the deposited data

How the results depend on the processing

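In all 18 alternative settings Galnt7 was lower and past the threshold of 0.05, with log2 differences from -2.42 to -2.17 (limma adjusted p from 0.000162 to 0.0129), and it was the 1 member called. Without 1 array in turn the difference ran from -2.42 to -2.17. The 152 genes called over all genes became 24 without both replicates 3 and 55 at a threshold of 0.01, and 60 to 134 with 1 array left out (60 without Fog1+/+ replicate 1 or 3, 83 without Fog1+/+ replicate 2 and 82 without Fog1ki/ki replicate 2). Fewer arrays or a stricter threshold make up those settings. The 0 pathway genes called became 1, Gfpt1, with quantile normalization repeated, without the dimmest 25% of genes and at a threshold of 0.10, and the cause of the first was not tested.

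Signs turned only for differences that did not pass in any setting. Galnt9 turned to -0.015 with quantile normalization repeated, -0.020 with arrays centred on their medians and -0.130 without both replicates 3, where Galnt10 turned to 0.040 and Galntl6 to -0.015. Zfpm1 turned to -0.007 with centring, and Galnt16 and Galnt18 to 0.007 and 0.019 with array weights. With 1 array left out the differences ran from -0.150 to 0.130 for Galnt10, -0.023 to 0.187 for Galnt11, -0.057 to 0.135 for Galnt9, -0.068 to 0.017 for Galnt14, -0.122 to 0.073 for Galnt16, -0.070 to 0.042 for Galnt18 and -0.058 to 0.157 for Zfpm1. The cause was not tested. Xk lost its call in 13 settings (adjusted p up to 0.424), Lat in 11, Cd63 in 9, Alox5 in 7, Gata2 in 6, and Alox5ap and Cecr2 in 1 each, without both replicates 3.

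Same-numbered arrays deviated from their group means with correlations of 0.068, -0.008 and 0.128 across genes. Differently numbered arrays gave -0.131 to 0.058. The highest value, 0.128, belonged to the replicates 3, which shared low Y-linked values. The main fit did not take the numbers as pairs. With the replicate number as a block the Galnt7 difference was -2.33 (log2, limma adjusted p = 0.00120), and 133 genes were called, 72 higher and 61 lower. Of the megakaryocyte markers 1, Pf4, passed under that block. With 3 arrays per genotype and no detection calls, small changes of dim probe sets such as Galnt3 and Galnt12 could not be resolved.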
